A study of Capra hircus with 12 samples.

Results

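The smooth and striated contractile genes followed here are 10 genes of the actin and myosin machinery, out of the 28910 rows in each deposited count table of goat temporomandibular joint (TMJ) cells. They were taken by gene name, from a list made with earlier results of these data known. Of these, TCAP and TNNI2 were chosen by their rise with LOXL2 in the middle cartilage layer, so that for this pair every value from middle layer libraries is given as a description with no test. The other 8 were ACTA2, ACTG2, TAGLN, CNN1, TPM1, TPM2, MYL9 and MYH9.

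Cells came from the mandibular condyle of young female goats from abattoirs, were sorted by layer into superficial cells (SLC) and cells of the cartilage beneath, the middle layer (MLC), and were grown on plastic for a few passages. For each layer there were 3 IL-1β libraries and 3 IL-1β+LOXL2 libraries, so that IL-1β, an inflammatory cytokine that was added for about an hour, was shared by all 12 libraries. LOXL2, an enzyme that crosslinks collagen and elastin, was delivered overnight by an adenovirus before IL-1β. The methods name an empty adenovirus as the control for flow cytometry of these cells but do not name one for the RNA-seq cultures, and if the IL-1β cells received none, an effect of LOXL2 and one of the virus cannot be told apart. The labels do not say whether replicates were separate animals or cultures, and p-values therefore measure the spread between these libraries, which may be technical.

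Muscle and many connective tissue cells pull by sliding myosin along actin filaments. In smooth muscle and in contractile fibroblasts, myosin is switched on by phosphorylation of its regulatory light chain, and the smooth muscle actins, transgelin and calponin mark cells that build stress fibres. In striated muscle the filaments are locked into sarcomeres, where troponin and tropomyosin gate contraction by calcium and titin is anchored at the Z-disc. Chondrocytes and fibrochondrocytes that spread in monolayer culture are known to gain stress fibres and smooth muscle actin.

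Library totals lay between 14158607 and 28931652 counts, and the 10 genes took from 0.691% to 1.09% of them. SLC IL-1β+LOXL2 replicate 1 stood apart from its group, with a chi-square per degree of freedom of 169 and 61.9 against the other replicates, where replicates 2 and 3 of that group gave 31. The pairs of MLC IL-1β+LOXL2 gave 6.1 to 36 and those within the IL-1β groups at most 9.93. The LOXL2 gene itself was not higher in the libraries labelled LOXL2, at 525 ± 55.4 against 624 ± 11.3 CPM in SLC and 783 ± 33.9 against 817 ± 53.2 CPM in MLC (mean ± SD, n = 3). The species of the delivered LOXL2 is not given in the sources used here, and whether its reads would be counted on the goat gene was not tested, so this gene is no check of delivery and directions below follow the labels. CPM are read counts brought to a common library size with TMM factors over the 12 libraries. With IL-1β, the cartilage genes COL2A1, ACAN and SOX9 were at 16.6, 399 and 86.6 CPM in MLC. In SLC, COL2A1 had no read, and ACAN and SOX9 were at 47.7 and 21.3 CPM. COL11A1 (1190 and 1237 CPM) and CHAD (1.59 and 1.61 CPM) were near equal in MLC and SLC. Of 6 superficial layer markers, COL1A1, COL1A2 and THY1 were lower in MLC. PRG4 (5.95 against 4.41 CPM), POSTN (227 against 95.3 CPM) and PDGFRA (971 against 912 CPM) were higher there. Of 10 skeletal muscle markers, MYOG had no read in any library, and MYOD1, CKM, MYL1 and MYLPF had at most 4 reads, while PAX7 (227 to 345 reads) and TNNT3 (150 to 576 reads) were present in SLC, where the list summed to 21.9 to 32.9 CPM. Of 7 endothelial markers, summing to 2.94 to 5.21 CPM, PECAM1 and CDH5 had at most 11 reads, VWF 24 to 64 and TEK 6 to 33. Of 6 leukocyte markers, summing to 55.9 to 140 CPM, PTPRC had at most 2 reads, whereas CD14 had 1034 to 2219 and CD68 62 to 351, and the part of either list in the results was not tested. These are bulk samples, in which fewer cells of a type and less RNA per cell cannot be told apart.

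**Figure D1:**
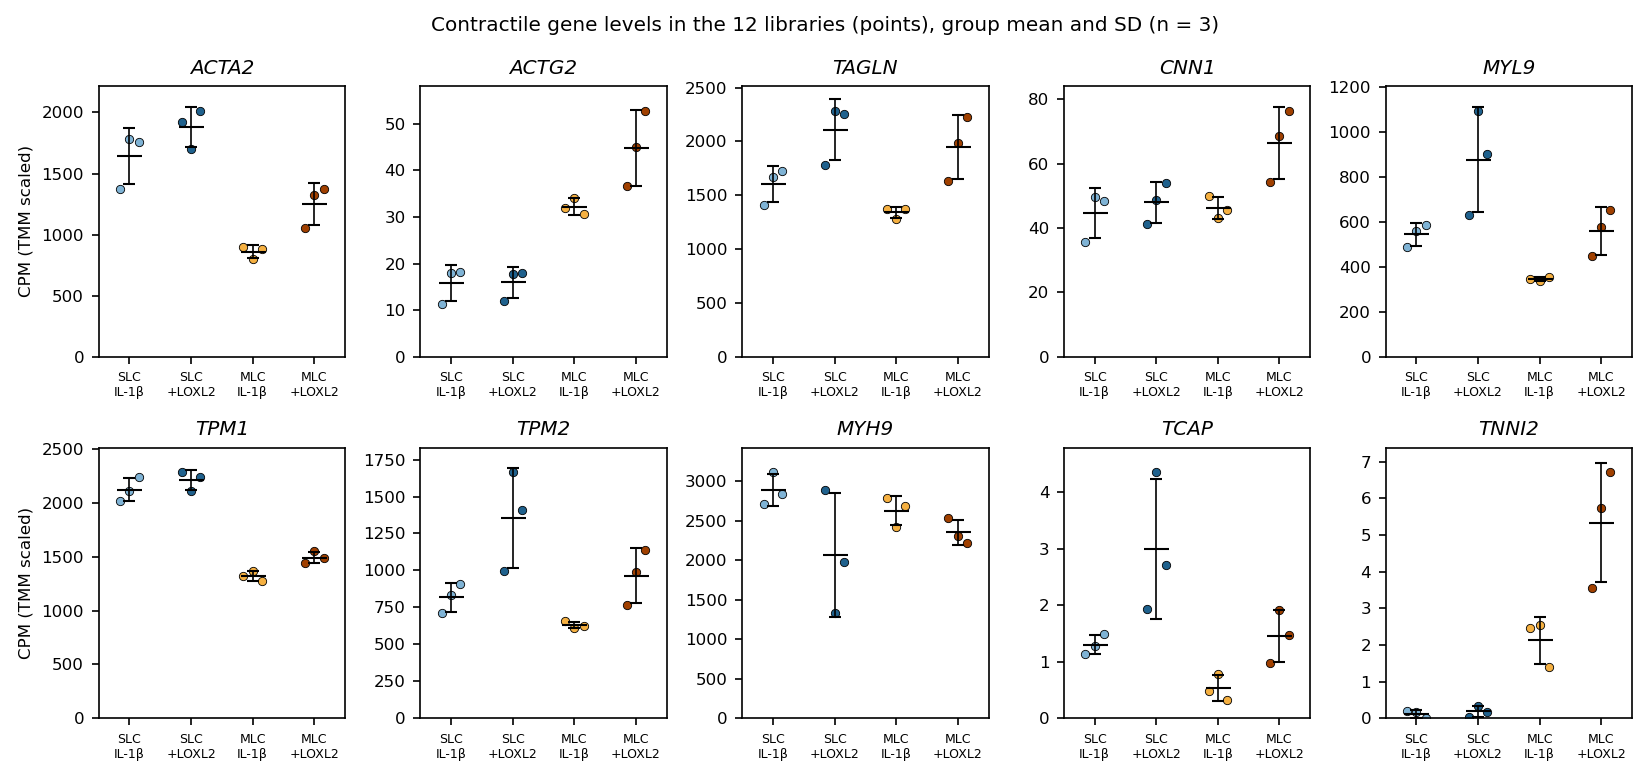
Level of each contractile gene in CPM (TMM scaled, linear axes starting at 0) in the 4 groups. Points are the 3 libraries of a group in replicate order, and the bar with whiskers is their mean and SD. The 3 MLC libraries with LOXL2 lie above the 3 without it for every gene but MYH9, and TNNI2 is at or below 0.34 CPM in every SLC library.

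ACTA2 (gene ID 102191486, ARS1.2 chromosome 26, 40710848 to 40728541), the smooth muscle alpha-actin that fills the stress fibres of myofibroblasts, was at 900.4, 797 and 886 CPM in the MLC libraries with IL-1β and at 1057, 1328 and 1377 CPM with LOXL2. In SLC it was at 1376, 1787 and 1761 CPM and at 1923, 1698 and 2015 CPM. The MLC groups did not overlap, whereas the SLC groups did, and the highest MLC library with LOXL2 only reached the lowest SLC library. ACTA2 rose with LOXL2 in MLC, by a log2 fold change of 0.54 (SE 0.11, adjusted p = 0.0193) in the quasi-likelihood test of edgeR, where SE is the standard error and p-values were adjusted over all genes by Benjamini-Hochberg. In SLC the edgeR value was 0.17 (SE 0.14, adjusted p = 0.364), which did not pass.

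ACTG2 (gene ID 102178279, chromosome 11, 10599120 to 10623483), the smooth muscle gamma-actin best known from the gut and bladder wall, had the opposite layer order. It was at 11.4, 18 and 18.2 CPM in SLC with IL-1β and at 12.1, 17.8 and 18 CPM with LOXL2. In MLC it was at 31.9, 34.1 and 30.5 CPM and at 36.6, 45.1 and 52.8 CPM. Every MLC library lay above every SLC library, and the MLC groups were apart from each other while the SLC groups overlapped. The log2 fold change with LOXL2 was 0.47 (SE 0.13, adjusted p = 0.0288) in MLC, a rise, and -0.018 (SE 0.23, adjusted p = 0.957) in SLC (edgeR). Actin genes are near copies of each other in their coding parts and the counting of reads shared by copies is not stated, so the split of counts between ACTA2, ACTG2 and other actins is uncertain.

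TAGLN (gene ID 102185937, chromosome 15, 54451507 to 54457041), which encodes transgelin, an actin-bundling protein of smooth muscle, was at 1410, 1667 and 1724 CPM in SLC with IL-1β and at 1779.8, 2286 and 2257 CPM with LOXL2. The MLC libraries were at 1374, 1284 and 1369.7 CPM and 1632, 1986 and 2229 CPM. The LOXL2 libraries lay above the IL-1β libraries in each layer without overlap. TAGLN rose in MLC by a log2 fold change of 0.53 (SE 0.11, adjusted p = 0.0194), while the SLC value of 0.38 (SE 0.14, adjusted p = 0.0936) did not pass the edgeR test.

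CNN1 (gene ID 102190599, chromosome 7, 95746922 to 95754869), the calponin that restrains myosin's ATPase on smooth muscle actin, was at 49.9, 43 and 45.7 CPM in MLC with IL-1β and at 54.1, 68.5 and 76.4 CPM with LOXL2. In SLC it was at 35.8, 49.6 and 48.5 CPM and 41.3, 48.8 and 53.9 CPM. The 3 MLC libraries with LOXL2 lay above the other 9, which overlapped across layer and treatment. CNN1 rose in MLC by 0.52 (SE 0.13, adjusted p = 0.0229) on the log2 scale, and in SLC the edgeR value was 0.083 (SE 0.16, adjusted p = 0.702).

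TPM1 and TPM2 encode tropomyosins, the coiled rods that lie along actin and set which myosins can bind. TPM1 (gene ID 102173472, chromosome 10, 56099379 to 56129730) was at 2023, 2107 and 2239 CPM in SLC with IL-1β and at 2287, 2110.2 and 2245 CPM with LOXL2. In MLC it was at 1326, 1366 and 1278 CPM and 1444, 1549.7 and 1486 CPM. The MLC groups did not overlap, yet their log2 difference of 0.17 (SE 0.082, adjusted p = 0.144) did not pass the edgeR test, nor did that in SLC, 0.041 (SE 0.11, adjusted p = 0.785).

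TPM2 (gene ID 102178827, chromosome 8, 59671618 to 59679173) was at 711, 834 and 907 CPM in SLC with IL-1β and at 997, 1665 and 1409 CPM with LOXL2. In MLC it was at 656, 613 and 626 CPM and 765, 992 and 1138 CPM. In neither layer did the treatments overlap, and in SLC the nearest LOXL2 library was replicate 1. TPM2 rose in MLC by a log2 fold change of 0.61 (SE 0.12, adjusted p = 0.0194). The SLC value, 0.71 (SE 0.20, adjusted p = 0.0706), was as large but had a wider error and missed the edgeR threshold of 0.05.

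MYL9 (gene ID 102178087, chromosome 13, 65213311 to 65221685) encodes the regulatory light chain whose phosphorylation switches on smooth and non-muscle myosin. It was at 487, 559 and 588 CPM in SLC with IL-1β and at 629.6, 1094 and 902 CPM with LOXL2. In MLC it was at 348, 336 and 354 CPM and 446, 579 and 654 CPM, the groups being apart in each layer. Among the 8 genes tested there, MYL9 had the largest rise in MLC, at 0.69 (SE 0.12, adjusted p = 0.019) on the log2 scale, and in SLC the edgeR value was 0.66 (SE 0.20, adjusted p = 0.0708).

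MYH9 (gene ID 102178047, chromosome 5, 73416441 to 73501885), the non-muscle myosin IIA heavy chain, had the only negative difference in both layers. It was at 2713, 3112 and 2833 CPM in SLC with IL-1β and at 2885, 1335 and 1971 CPM with LOXL2. The MLC libraries were at 2779, 2421 and 2679 CPM and 2528, 2309 and 2215 CPM. The treatments overlapped in each layer, in SLC because LOXL2 replicate 1 lay among the IL-1β libraries while the other two lay below all of them. The log2 fold changes of -0.50 (SE 0.26, adjusted p = 0.177) in SLC and -0.17 (SE 0.091, adjusted p = 0.193) in MLC did not pass the edgeR test.

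TCAP (gene ID 100861162, chromosome 19, 39683379 to 39684234) encodes telethonin, the cap that joins titin ends at the Z-disc of striated muscle. It held few reads, 7, 12 and 5 in the MLC libraries with IL-1β and 19, 27 and 27 with LOXL2, which is 0.492, 0.781 and 0.332 and 0.98, 1.91 and 1.47 CPM. These are the values that selected it, with a log2 fold change of 1.39 (SE 0.41) given with no test. The SLC libraries, which the choice did not use, held 22, 29 and 30 reads with IL-1β and 42, 117 and 59 with LOXL2, or 1.14, 1.28 and 1.49 and 1.93, 4.36 and 2.71 CPM. The SLC groups did not overlap, and the log2 fold change there was 1.18 (SE 0.33, adjusted p = 0.0706) by edgeR, the largest of the contractile genes tested in SLC but not past the threshold.

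TNNI2 (gene ID 100861283, chromosome 29, 50655923 to 50658317) encodes the fast skeletal muscle form of troponin I, the subunit that holds actin in the off state. In MLC it held 35, 39 and 21 reads with IL-1β and 69, 81 and 123 with LOXL2, or 2.46, 2.54 and 1.39 and 3.56, 5.73 and 6.71 CPM. The log2 fold change of 1.31 (SE 0.29) is the value it was selected on and carries no test. In SLC there were 4, 4 and 0 reads with IL-1β and 1, 9 and 4 with LOXL2, too few to pass the filter, and the 0 reads of IL-1β replicate 3 allow up to 0.149 CPM (3 counts, counting error only). Whether TNNI2 responds to LOXL2 in SLC was thus not detectable at this depth.

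In MLC, 6 of the 8 genes open to a test rose with LOXL2 and none fell. ACTA2, ACTG2, TAGLN, CNN1, MYL9 and TPM2 were higher by 1.39-fold (ACTG2) to 1.61-fold (MYL9), with adjusted p-values of 0.019 to 0.0288. Of all 13664 genes tested, 9.81% were called higher and 11.8% lower. The median log2 fold change of the 8 was 0.52, against 0.0079 over all genes. The groups were fully apart, higher with LOXL2, for 7 of the 8, against 21.6% of all genes. Because the 8 were listed with earlier results of these data known, the counts beside these shares are descriptions and no test of the set. MLC IL-1β+LOXL2 replicate 1 was the lowest of its group for 9 of the 10 genes, and without it 8 of 8 passed, with TPM1 at 0.19 and MYH9 at -0.22, in a fit that called 23.7% of all genes higher and 24.4% lower. None of the 8 passed without MLC IL-1β replicate 1, without IL-1β replicate 3, without LOXL2 replicate 2, or in a fit over all 12 libraries, and in each of these fits 0% of all genes were called. The count was 4 without IL-1β replicate 2, where 1.53% of all genes were called higher and 4.41% lower, and 4 without LOXL2 replicate 3, where 0.607% and 2.82% were. The fold changes themselves kept their direction in each of these fits.

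In SLC, none of the 9 tested genes passed, as 0% of 14103 genes did by edgeR. TAGLN, MYL9, TPM2 and TCAP had an unadjusted p under 0.05 and were higher in all 3 LOXL2 libraries than in any IL-1β library. Among all genes 23.1% were higher at this unadjusted p, and 25.5% were higher without overlap. DESeq2's Wald test called 3 of the 9 higher (MYL9, TPM2 and TCAP, with adjusted p-values of 0.0152, 0.00963 and 0.0172), against 17.1% of all genes, and a fit over all 12 libraries called 4, beside 22.5% of all genes higher and 18.5% lower. The median log2 fold change of the 9 was 0.17, against 0.013 over all genes.

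The SLC result turned on LOXL2 replicate 1, which was the lowest of its group for 7 of the 10 genes. Without it, edgeR called TAGLN (0.48, adjusted p = 0.00385), MYL9 (0.85), TPM2 (0.88) and TCAP (1.41) higher. MYH9 was called lower, at -0.83 (adjusted p = 0.000871). In the same fit 31% of all genes were called higher and 30.8% lower. ACTA2, ACTG2, CNN1 and TPM1 did not pass with or without that library. Leaving out LOXL2 replicate 2 instead gave smaller changes for the genes called there. They were 0.32 for TAGLN, 0.47 for MYL9, 0.54 for TPM2, 0.81 for TCAP and -0.26 for MYH9. ACTA2 (0.25) and TPM1 (0.078) were higher in that fit, which called 0% of all genes. SLC IL-1β replicate 1 was in turn the lowest of its group for 9 of the 10 genes. Leaving it out gave lower values, at 0.061 for ACTA2, 0.29 for TAGLN and -0.055 for CNN1, and 0% of all genes were called.

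**Figure D2:**
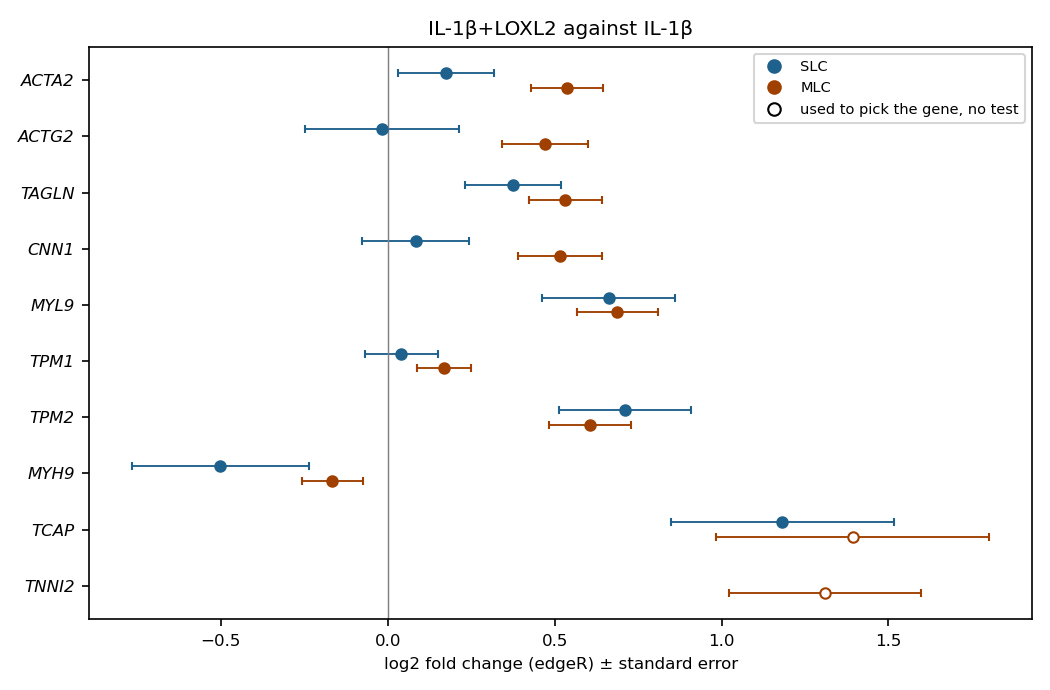
Log2 fold change of IL-1β+LOXL2 over IL-1β in SLC and MLC (edgeR), with the standard error as whiskers. Filled points were open to a test, and open points are the MLC values by which TCAP and TNNI2 were chosen. MYL9 and TPM2 have like values in the layers (0.66 and 0.69 for MYL9), ACTG2 and CNN1 are near 0 in SLC, and TNNI2 has no SLC value because of low counts.

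The fold changes ran with gene span, the genomic distance from the start to the end of a gene with its introns. Over all genes, the rank correlation of log2 fold change with span was -0.49 in SLC (14073 genes) and -0.49 in MLC (13637 genes), a description over genes that share the same libraries. The contractile genes ran from 856 bases (TCAP) to 85445 bases (MYH9), where the median gene tested in MLC spanned 21271 bases. TCAP, TNNI2 (2395 bases), TAGLN (5535 bases), TPM2 (7556 bases), CNN1 (7948 bases) and MYL9 (8375 bases) were short, and MYH9, with negative values, was the longest.

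With the span trend removed from each library, the same 6 genes remained called in MLC, at 0.35 for TAGLN, 0.37 for CNN1, 0.45 for TPM2 and 0.54 for MYL9 on the log2 scale, and 7.8% of all genes were called higher. ACTA2 (0.51) and ACTG2 (0.49), nearer the median span, moved little. MYH9 turned from -0.17 to 0.08, not past the threshold in either fit. In SLC, TAGLN went from 0.38 to 0.11, TCAP from 1.18 to 0.75, TPM2 from 0.71 to 0.47 and MYL9 from 0.66 to 0.44.

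**Figure D3:**
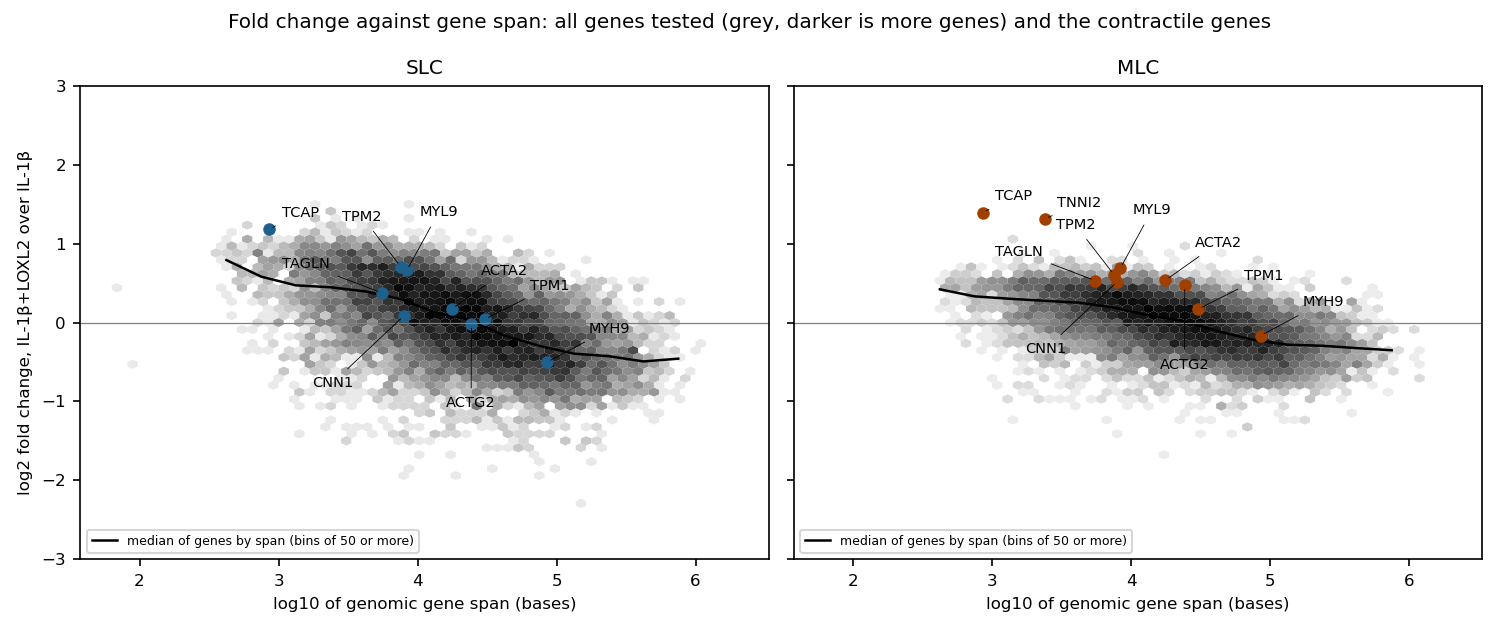
Log2 fold change of IL-1β+LOXL2 over IL-1β against the log10 of genomic gene span in bases, for all genes tested in SLC (left) and MLC (right). Grey shading is the density of genes within 3 log2 units of 0, the line is the median by span, and coloured points are the contractile genes. The line falls with span in each layer, and in MLC ACTA2, ACTG2, TAGLN, CNN1, MYL9 and TPM2 lie above it.

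The difference between the layers in the LOXL2 effect was tested as an interaction over the 12 libraries. None of the 8 genes open to a test passed, with 0% of 14519 genes called by edgeR. None of the 8 had an unadjusted p under 0.05 in edgeR, where only 1.03% of all genes were higher and 1.23% lower at that p. DESeq2 called none of the 8 and 0% of all genes. The differences, MLC minus SLC, were 0.47 (SE 0.28) for ACTG2, 0.42 (SE 0.22) for CNN1 and 0.35 (SE 0.18) for ACTA2 on the log2 scale, and 0.01 (SE 0.26) for MYL9. A rise in MLC alone is therefore not shown for any of them. For TCAP and TNNI2, described with no test, the differences were 0.20 (SE 0.55) and 0.73 (SE 1.02).

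Between the layers, with IL-1β alone, most contractile genes were lower in MLC. ACTA2 was at 0.530 times its SLC level, with a log2 fold change of -0.92 (SE 0.092, adjusted p = 1.49e-06) by edgeR. TPM1 (-0.67, adjusted p = 1.08e-06), MYL9 (-0.64, adjusted p = 4.17e-06), TPM2 (-0.36, adjusted p = 0.00197) and TAGLN (-0.24, adjusted p = 0.0191) were lower too. ACTG2 was 2.04-fold higher in MLC (1.03, adjusted p = 2.31e-05). CNN1 (0.06) and MYH9 (-0.12) did not pass. Thus 1 of 8 was called higher and 5 of 8 lower, where 24.2% and 22.7% of 13953 genes were. TAGLN, the smallest of these differences, was lost in 3 of the 6 fits that left out a library and in the fit over all 12 libraries, and TPM2 was lost in the latter.

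With LOXL2, ACTG2 was 2.86-fold higher in MLC (1.52, adjusted p = 0.00246 by edgeR), and ACTA2 (-0.56, adjusted p = 0.0433) and TPM1 (-0.54, adjusted p = 0.018) were lower. The other 5 genes did not pass, among them MYL9 at -0.62 (adjusted p = 0.11), CNN1 at 0.49 (adjusted p = 0.0879) and TAGLN at -0.086. Of 14074 genes, 9.29% were called higher and 6.83% lower. In these groups the libraries numbered 1 deviated together (correlation 0.640). Those numbered 2 and 3 gave 0.231 and 0.199, below the 0.489 of SLC replicate 2 with MLC replicate 3, so the numbers need not pair the libraries. In edgeR with the replicate number as a block, CNN1 was also higher (adjusted p = 0.00871) and MYL9 and TPM2 also lower (adjusted p = 0.00837 and 0.0298). That fit called 14.4% of all genes higher and 13.2% lower. ACTG2 alone passed in every fit that left out a library. ACTA2 and TPM1 failed without SLC IL-1β+LOXL2 replicate 3 and without any of the 3 MLC libraries in turn.

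TCAP and TNNI2 had opposite layer orders, given with no test. TCAP was at 1.31 ± 0.175 CPM in SLC and 0.535 ± 0.228 CPM in MLC with IL-1β (mean ± SD, n = 3), a log2 difference of -1.26 (SE 0.36), and with LOXL2 the difference was -1.03. TNNI2 was at 0.128 ± 0.112 CPM in SLC and 2.13 ± 0.64 CPM in MLC, a log2 difference of 3.98 (SE 0.51), and of 4.75 with LOXL2. Every SLC library lay above every MLC library of the same treatment for TCAP, and below for TNNI2. With IL-1β, 28.5% of all genes were lower and 27.5% higher in MLC without overlap, and with LOXL2 17.1% and 18% were. TNNI2 passed the filter only through MLC, and TCAP with IL-1β only through SLC.

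**Figure D4:**
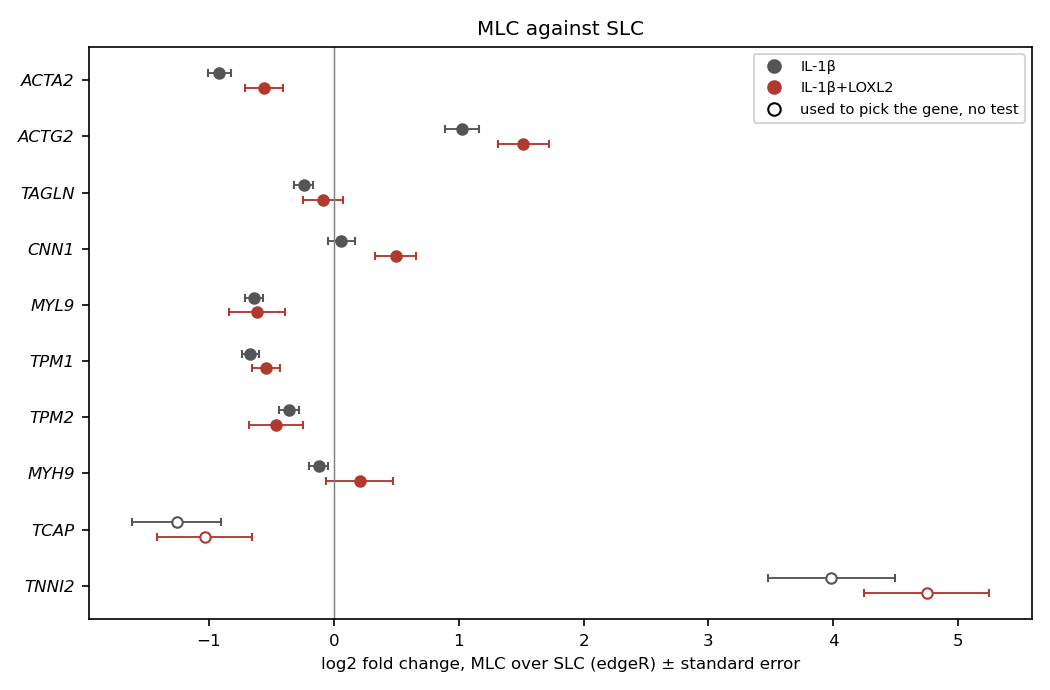
Log2 fold change of MLC over SLC with IL-1β and with IL-1β+LOXL2 (edgeR), with the standard error as whiskers; open points have no test. ACTG2 and TNNI2 lie to the right of 0 under each treatment, and ACTA2, MYL9, TPM1, TPM2 and TCAP to the left.

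Ratios of read counts within a library do not depend on its scaling, though each ratio also carries the lengths of its genes and is compared only between libraries. The 5 ratios were chosen after the values were seen, gave 20 comparisons, and with 3 against 3 libraries an exact permutation test (two-sided) cannot go below 0.1, which becomes 0.154 after adjustment. ACTG2/ACTA2 was 0.0083, 0.0101 and 0.0104 in SLC with IL-1β and 0.0354, 0.0428 and 0.0344 in MLC. With LOXL2 it was 0.00627, 0.0105 and 0.00892 in SLC and 0.0346, 0.0339 and 0.0383 in MLC. The layers were apart by 1.97 log2 units with IL-1β and 2.09 with LOXL2 (exact permutation p = 0.1 each), while the treatments overlapped in each layer.

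TPM2/TPM1 was 0.351, 0.396 and 0.405 in SLC with IL-1β and 0.436, 0.789 and 0.628 with LOXL2. In MLC it was 0.495, 0.448 and 0.49 and 0.53, 0.64 and 0.766. The ratio was higher in all 3 LOXL2 libraries of each layer than in any IL-1β library (exact permutation p = 0.1 each). MYL9/MYH9 did the same, with a mean of 0.189 ± 0.0161 and 0.499 ± 0.303 in SLC and of 0.132 ± 0.00685 and 0.241 ± 0.0601 in MLC (mean ± SD, n = 3). In each of these ratios the gene with the shorter span is on top, and the part of the span trend in them was not tested.

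CNN1/TAGLN and TAGLN/ACTA2 overlapped between the treatments in MLC, at 0.0344 ± 0.00166 and 0.034 ± 0.000701 for the former and 1.56 ± 0.0448 and 1.55 ± 0.062 for the latter (mean ± SD, n = 3). In SLC, CNN1/TAGLN was 0.0278 ± 0.00222 with IL-1β and 0.0228 ± 0.00131 with LOXL2, without overlap (exact permutation p = 0.1). TAGLN/ACTA2 was higher in MLC than in SLC under each treatment, with 0.979 ± 0.0458 in SLC with IL-1β.

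**Figure D5:**
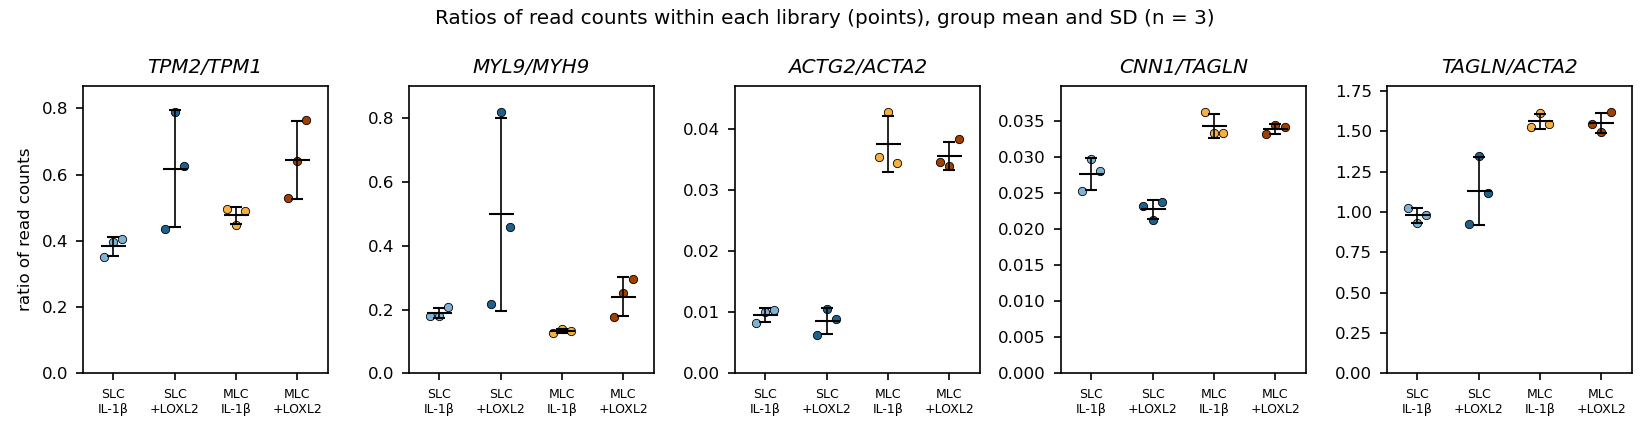
Ratios of read counts of paired contractile genes within each library (points, 3 per group), with the group mean and SD; axes are linear and start at 0. ACTG2/ACTA2 separates the layers, with means of 0.00958 in SLC and 0.0375 in MLC under IL-1β, and TPM2/TPM1 and MYL9/MYH9 are higher with LOXL2 in each layer.

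Among the 10 genes, the profiles over the 12 libraries were nearest for MYL9 and TPM2, whose centred log2 levels differed by a root mean square of 0.117. ACTA2 was nearest to TPM1 (0.191), TAGLN to TPM2 (0.186) and CNN1 to TAGLN (0.252), while TNNI2 was 1.42 from its nearest, ACTG2. Among all 14519 genes, the 3 most like ACTA2 were CD248, a stromal and pericyte surface protein (0.104), GADD45B (0.147) and MLLT11 (0.148). CD248 was at 89.4 ± 9.77 CPM in SLC with IL-1β and 51.4 ± 8.63 CPM in MLC (mean ± SD, n = 3). The genes most like TCAP were C18H16orf74 (0.270), RARRES2, which encodes the adipokine chemerin (0.302), and PDZD3 (0.313). Those most like TNNI2 were HOXD9, a homeobox gene (0.538), C3H2orf82 (0.589) and TMEM184A (0.615), each higher in MLC than in SLC.

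The nearest annotated genes were examined for TCAP and TNNI2. SYT8, a synaptotagmin gene that starts 1369 bases past the end of TNNI2, was at 0.219 ± 0.186 CPM in SLC and 14.7 ± 3.17 CPM in MLC with IL-1β, and rose with LOXL2 in MLC (log2 fold change 0.64, SE 0.18, adjusted p = 0.0303 by edgeR). LSP1, an actin-binding protein of leukocytes whose gene lies 8808 bases to the other side, rose there too (0.56, SE 0.15, adjusted p = 0.0256), and was lower in MLC than in SLC (-0.77, adjusted p = 9.14e-08). STARD3, 1699 bases from TCAP, did not pass in MLC (0.19, adjusted p = 0.207), and PNMT on the other side had at most 2 reads. No annotated gene overlapped TCAP or TNNI2. Use of strand in the counting is not stated, and whether reads of one gene run on into its neighbour was not tested.

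Genes of the wider machinery went in both directions with LOXL2. Of 28 tested genes of smooth muscle and non-muscle actomyosin other than the 10, 8 rose and 3 fell in MLC, with a median log2 fold change of 0.021. Of all genes, 9.81% were called higher and 11.8% lower. TMSB10, an actin-monomer-binding thymosin (0.52, adjusted p = 0.0207 by edgeR), MYL6, the essential myosin light chain (0.47, adjusted p = 0.0204), PDLIM7 (0.43, adjusted p = 0.0269) and CSRP1 (0.41, adjusted p = 0.0237) rose. SYNPO2 (-0.94, adjusted p = 0.0266), LPP, a focal adhesion protein (-0.81, adjusted p = 0.0190), and MYH10, the non-muscle myosin IIB heavy chain (-0.32, adjusted p = 0.0441), fell. MYH11, the smooth muscle myosin heavy chain, was at 27.3 ± 3.48 CPM in MLC with IL-1β and 26.8 ± 2.14 CPM with LOXL2, and did not pass. The 11 calls became 20 without MLC IL-1β+LOXL2 replicate 1, 2 without replicate 3 and 1 without IL-1β replicate 2, and 0 without each of the other 3 libraries, in the fits whose shares over all genes are given above.

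Of 19 tested regulators of contractility, 1 rose and 3 fell in MLC (median -0.12), near the 9.81% of all genes called higher and 11.8% lower. TGFB1I1, a focal adhesion cofactor (0.36, adjusted p = 0.0386 by edgeR), rose. MKL2, a cofactor of serum response factor (-0.66, adjusted p = 0.0199), was among those that fell. These 4 calls became 12 without MLC IL-1β+LOXL2 replicate 1, 2 without its replicate 3 or IL-1β replicate 2, and 0 without each of the others. In SLC none of 28 and none of 18 genes of these lists passed by edgeR, and 14 and 9 had an unadjusted p under 0.05, as had 23.1% of all genes with a higher and 20.2% with a lower value. The smallest p-values there were those of LPP (-1.32), MYL6 (0.56) and PFN1 (0.55), and of MKL2 (-0.76), PPP1R14A (0.81) and FHL2 (0.41). Without SLC IL-1β+LOXL2 replicate 1, 21 and 14 genes of these lists passed, where 31% of all genes were called higher and 30.8% lower.

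Of the other sarcomere genes, 3 of 16 tested passed in MLC, where 9.81% of all genes were called higher and 11.8% lower. Of 54 striated muscle genes listed, 48 were in the tables and 16 were expressed enough to test, of which MYBPC2, a fast-fibre myosin-binding protein, rose (0.99, adjusted p = 0.0326 by edgeR) and NEB, the nebulin gene (-0.77, adjusted p = 0.0260), and FBXO32, a ubiquitin ligase of muscle atrophy (-0.34, adjusted p = 0.0466), fell. The median log2 fold change was 0.013, and the 3 calls became 5 without MLC IL-1β+LOXL2 replicate 1 and 0 without any other MLC library. In SLC none of 17 passed by edgeR and 5 had an unadjusted p under 0.05, beside 23.1% of all genes higher and 20.2% lower. They were led by NEB (-1.01), TNNT3 (0.91) and FBXO32 (-0.41). Without SLC IL-1β+LOXL2 replicate 1, 9 passed, beside the 31% and 30.8% of all genes in that fit. None of the myogenic factors tested passed in either layer (3 genes in MLC, all at an unadjusted p under 0.05 and lower, and 4 in SLC, 2 of them so). Of all genes, 20.1% in MLC and 20.2% in SLC were lower at this unadjusted p. The summed skeletal muscle markers were at 2.53 to 3.65 CPM in MLC with IL-1β and at 3.47 to 4.48 CPM with LOXL2, and their part in the values of TNNI2 and TCAP was not tested.

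Single sarcomere genes differed in both directions between the layers with IL-1β, with 6 of 18 higher in MLC and 7 lower. Of all genes, 24.2% were called higher and 22.7% lower there. Those higher, beside TNNI2, were led by MYOZ3, a Z-disc protein (3.33), ACTN2, the Z-disc alpha-actinin (1.97, adjusted p = 3.56e-07 by edgeR), TNNI3, the cardiac troponin I (1.68, adjusted p = 5.92e-05), and MYBPC2 (1.23, adjusted p = 0.0031). Those lower were led by ACTC1, the cardiac actin (-2.44), TNNT3, the fast troponin T (-1.74, adjusted p = 2.8e-06 by edgeR), and TTN, titin (-1.61). Per library with IL-1β, MYOZ3 held 2 to 5 reads in SLC, and ACTC1 held 1 to 4 and TTN 3 to 7 in MLC. MYOZ3, ACTC1 and TTN passed the filter only through the layer where they were high. Their differences are descriptions, though they are in the counts of 6 and 7. TNNT3, the partner of TNNI2 in fast muscle, thus had the opposite layer order, at 7.66 ± 0.956 CPM in SLC and 2.25 ± 0.461 CPM in MLC. With LOXL2, 4 of 19 were higher and 2 lower, where 9.29% of all genes were called higher and 6.83% lower. These were MYOZ3 (3.24), ACTN2 (2.22), MYBPC2 (1.54), TNNT1 (1.49), TNNT3 (-2.20) and FBXO32 (-0.73). In the SLC libraries with LOXL2, MYOZ3 held only 2 to 6 reads and TNNT1 only 3 to 7. Both passed the filter only through MLC, so their differences are descriptions, though they are in the count of 4.

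PAX7, the satellite cell factor, was the myogenic gene with the widest gap, at 14.8 ± 0.456 CPM in SLC and 0.198 ± 0.128 CPM in MLC with IL-1β (log2 fold change -6.14). PAX7 held 282 to 345 reads in these SLC libraries and 1 to 5 in MLC. It passed the filter only through SLC, so the difference is given as a description. The summed skeletal muscle markers in SLC ran from 22.4 to 23.5 CPM with IL-1β and from 21.9 to 32.9 CPM with LOXL2. In the actomyosin list, 6 of 28 genes were higher and 12 lower in MLC with IL-1β, where 24.2% of all genes were called higher and 22.7% lower. TPM3 (0.76), TAGLN2 (0.44), PFN1 (0.39) and ZYX (0.38) led the former, and SYNPO2 (-3.13), VCL (-0.96), LPP (-0.84) and PDLIM7 (-0.65) the latter. Among 19 regulators 5 were higher and 3 lower, near those shares of all genes. MYOCD, the smooth muscle master cofactor, was at 0.326 ± 0.149 CPM in SLC (5 to 10 reads) and 1.35 ± 0.18 CPM in MLC, a log2 fold change of 2.05. It passed the filter only through MLC, so this too is a description. With LOXL2, 2 actomyosin genes were lower (SYNPO2 and PDLIM7) and 2 regulators higher (DIAPH1 and CYR61), beside 9.29% of all genes higher and 6.83% lower. Without SLC IL-1β+LOXL2 replicate 1 the calls in these lists were 11 and 5, where 16.8% of all genes were called higher and 16.1% lower. The summed mural cell markers lay between 465 and 680 CPM over all 12 libraries, with RGS5, a pericyte gene, at 1.09 CPM or less. Of 6 mural markers tested with IL-1β, 5 were called lower in MLC, among them ABCC9 (-2.45), KCNJ8 (-1.31) and PDGFRB (-0.81). Only CSPG4 (1.22) was called higher, where 22.7% of all genes were called lower and 24.2% higher. The part of these markers in the layer differences of ACTA2 and the others was not tested.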

How the data were processed

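The data were RNA-seq of 12 libraries of goat TMJ cells (SLC and MLC, IL-1β and IL-1β+LOXL2, 3 each). The authors trimmed the paired-end reads, from mRNA captured with poly-T beads, mapped them to goat ARS1.2 (HISAT2 in the submitters' processing notes), counted them per gene with featureCounts and deposited raw counts in a table per layer, with no columns of their own comparisons. The settings for strand and for multiply mapped reads are not given in the sources used here. Of 28910 rows, 28884 carry a RefSeq symbol, from which coordinates and spans were taken. The 1783 rows that share a name were left out where the tables were joined (27127 genes).

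The main test was the quasi-likelihood F test of edgeR 4.0.16 (R 4.3.3) after filterByExpr (at least 10 counts, 15 in total) and TMM scaling, at a Benjamini-Hochberg threshold of 0.05, over the 6 libraries of a comparison, or 12 for the interaction. The SE is the absolute log2 fold change over the square root of F. Depth was 14158607 to 28931652 counts. The procedure was run on simulated counts with a fixed spread between replicates. The changes set there were larger than those of the genes called in MLC and lay only in well-counted genes. That run therefore does not cover small changes, low counts such as those of TCAP and TNNI2, or the uneven replicates seen here. Alternatives were DESeq2's size factors, no filter, 10 counts in every library, DESeq2 1.42.0 (Wald test, the study's tool), a replicate block, all 12 libraries, an offset that takes out each library's smooth trend (lowess, 0.3) of log2 CPM against log10 span, and each library left out. In MLC against SLC with IL-1β+LOXL2, same-numbered libraries had correlations of 0.640, 0.231 and 0.199, while SLC replicate 2 with MLC replicate 3 gave 0.489. The pairing in the block comes only from the numbers in the titles.

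The members and lists were chosen with earlier results of these data known. Named are the 10 genes, up to 4 genes per list, comparison and direction with the largest change past the threshold and no overlap between groups (or the 3 with the smallest p where none passed), the neighbours of TCAP and TNNI2, and the 3 genes most like TCAP, TNNI2 and ACTA2 (root mean square difference of centred log2 CPM). Marker genes, MYH11 and LOXL2 were named as checks. Older symbols (MKL2, CYR61) were used where the tables have them, and some listed names, such as most skeletal myosin heavy chains, were not found in the tables and not analysed here. A few genes that the rule names are not reported here.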

Additional observations from a re-analysis of the deposited data

How the results depend on the processing

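Of the values of the 10 genes, 592 of 681 under an alternative kept their direction and side of the threshold or, where untested, moved by less than their spread. The 592 include values called in neither fit. Of the genes called with LOXL2 in MLC, ACTA2, TAGLN, MYL9 and TPM2 kept the call in 3 of 6 fits with a library left out. ACTG2 and CNN1 kept it in 1 of 6. In SLC, the count of genes called (0) was 3 by DESeq2, 4 when all 12 libraries were fitted together and 0 to 5 with a library left out, 5 only without LOXL2 replicate 1. In MLC, the count (6) was 0 over all 12 libraries and 0 to 8 with a library left out. For MLC against SLC with IL-1β+LOXL2, it (3) was 6 with the replicate block, 5 over all 12 libraries, 5 with the span trend removed and 1 to 6 with a library left out. Calls over all genes grew in these fits too, from 9.29% higher and 6.83% lower to 14.4% and 13.2% with the block. They were 14.6% and 14.3% over all 12 libraries, and 11.4% and 10% with the span trend removed. With the span trend removed, log2 fold changes changed sign for ACTG2 (0.013) and CNN1 (-0.13) with LOXL2 in SLC, MYH9 with LOXL2 in MLC (0.080) and CNN1 between layers with IL-1β (-0.0021), none of them called. With a library left out, values spanned 0 for ACTG2 (-0.21 to 0.14) and CNN1 (-0.055 to 0.17) with LOXL2 in SLC, for the layer difference of the effect in MYL9 (-0.18 to 0.21) and TPM2 (-0.30 to 0.056), for CNN1 between layers with IL-1β (-0.075 to 0.14), and with IL-1β+LOXL2 for TAGLN (-0.19 to 0.031) and MYH9 (-0.028 to 0.54). Beyond the span offset, the cause was not tested.

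Replicate numbers did not pair the libraries in the other comparisons either (same-number correlations -0.24 to 0.17 in SLC, -0.083 to 0.15 in MLC, and -0.11 to -0.052 between layers with IL-1β). The block left the calls at 0 in SLC and 6 in MLC, and gave 5 for 6 between layers with IL-1β, where TAGLN had an adjusted p of 0.0546 in edgeR. With the block, 0% of all genes were called in SLC, and 13.5% higher and 16.1% lower in MLC. Between layers with IL-1β these shares were 21.7% and 20%. Over all genes, calls with LOXL2 ran from 0 to 8849 in SLC (0 in the fit reported) and from 0 to 6653 in MLC (2958), and between layers from 3716 to 6982 with IL-1β (6545) and 1155 to 4673 with IL-1β+LOXL2 (2268). At TNNI2's 0 to 9 reads in SLC, and TCAP's 5 to 117 over the 12 libraries, counting error is a large part of each value.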
